A study of Hydra vulgaris with 15 samples.

Results

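Among 79784 assembled transcripts of the freshwater polyp Hydra vulgaris, 54 were abundant in the body column, low in the head of control animals, and raised in the head after RNA interference (RNAi) against the transcription factor Zic4. They were chosen on CPM, the count of a transcript per 1000000 counts of its library. A member had at least 5 CPM in every control body column, a mean there at least 4 times that of control heads, every RNAi head above every control head, and a mean in RNAi heads at least 2 times that of control heads. Of all transcripts, 11685 met the first condition and 285 of those met the second, and these 285 are called body-column-enriched. In 63 of the 285 the RNAi heads lay above the control heads, and 9 of the 63 failed the last condition. Because these values chose the members, the levels in RNAi heads, control heads and control body columns are a description, while RNAi body columns played no part in the choice.

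Hydra is a tube-shaped cnidarian with a mouth and tentacles at the head end and an adhesive disc at the foot end. Its epithelial cells divide in the body column and are displaced towards both ends, where they take on the specialised fates of tentacle or basal disc cells. Zic4 belongs to a family of zinc finger transcription factors, and the study asked how it acts in head and body column, in the setting of tentacle formation and of changes in epithelial identity. RNAi is a method that reduces the transcript of a target gene.

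The groups were 4 Zic4 RNAi heads, 4 control heads, 4 Zic4 RNAi body columns and 3 control body columns, the last with replicate numbers 2, 3 and 4. All came from the Basel1 strain, starved for 4 days and electroporated 4 times, with RNA taken 1 day after the last electroporation and 20 polyps used per condition. The genotype field calls the controls wild-type, and what they received by electroporation is not stated there. The labels do not state where heads were cut from body columns or whether the foot was part of the body column sample. They also do not say whether libraries of a group came from separate batches of animals, so p-values measure the spread between these libraries, which may be technical. Libraries held 16020872 to 22554240 counts. None of the contig IDs matched the table of gene names used here, so members are given by ID, with no gene name or function, no pathway or marker list was applied, and Zic4 itself was not analysed here. CPM is not corrected for transcript length and is not compared between transcripts.

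In RNAi heads the 54 members together held 1484, 1655, 1829 and 1444 CPM in replicates 1 to 4, against 362, 614, 505 and 396 CPM in control heads. RNAi body columns held 5485, 5610.1, 6228 and 6077 CPM, against 6106, 5407 and 5466 CPM in control body columns with numbers 2, 3 and 4. The heads of the RNAi animals thus stood between the control heads and both groups of body columns, and the body column groups overlapped. The mean sum was 1603 ± 176 CPM in RNAi heads (SD, n = 4), 28.3% of the control body column mean, and 469 ± 115 CPM in control heads (SD, n = 4), 8.29% of it. In bulk tissue, a change in the number of cells that make a transcript and a change in the amount each cell makes cannot be told apart.

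**Figure D1:**
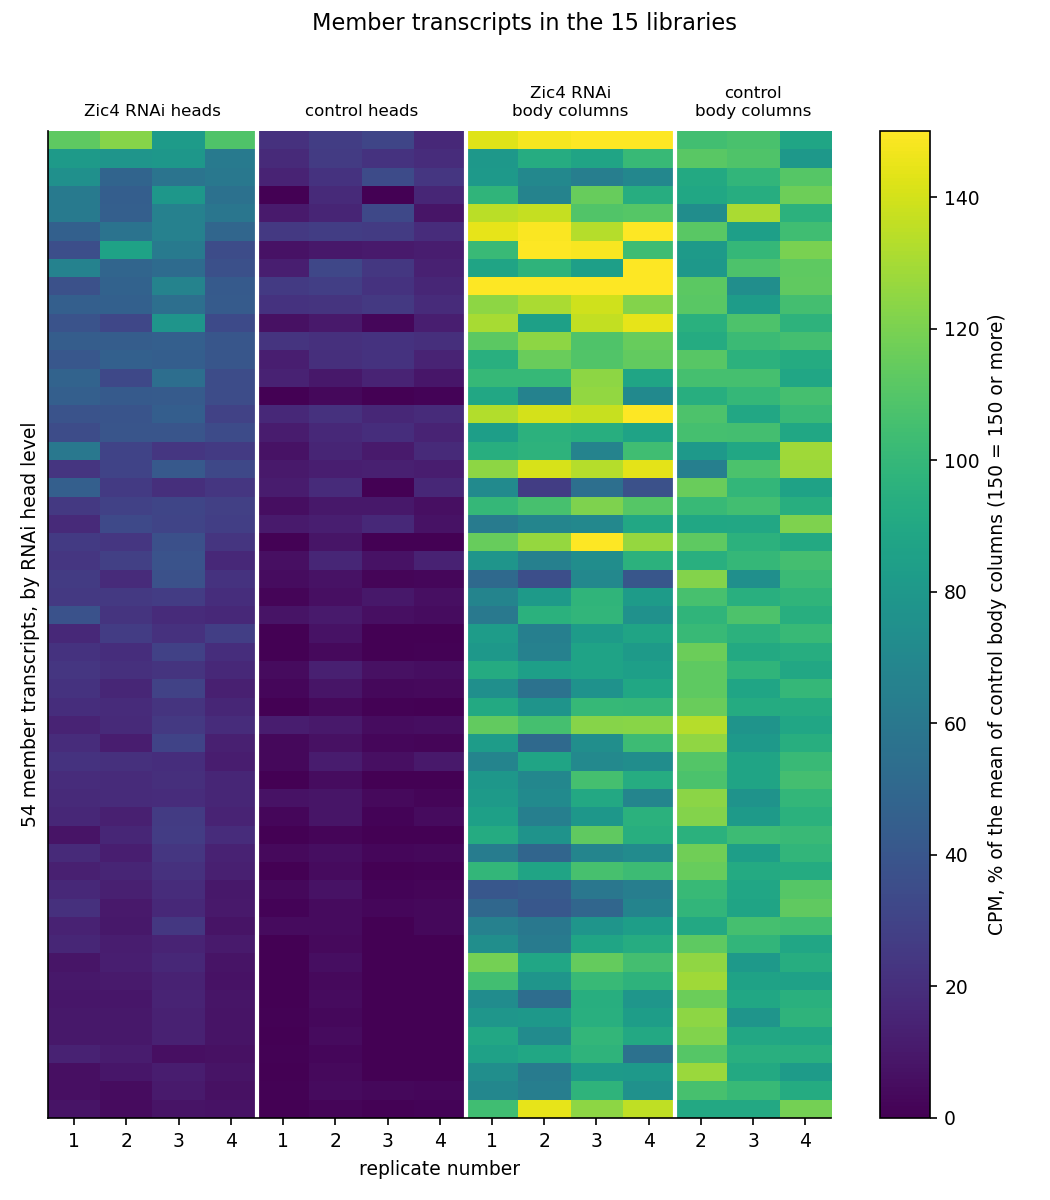
Heat map of the 54 members (rows) in the 15 libraries (columns, by group and replicate number), coloured by CPM as a percent of the member's mean in control body columns, with values of 150% or more in 1 colour. RNAi heads are brighter than control heads in every row, as the choice required, and RNAi body columns lie near control body columns, from 47.6% to 159.9% by member.

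The gain in the head was partial for most members. The mean level in RNAi heads was a median of 23.6% of that in control body columns, with quartiles at 16.1% and 42.2% and a range of 6.81% to 107%. Control heads had a median of 5.8% of it, with quartiles at 1.38% and 12.2%. By RNAi head level, 4 members lay under 10% of the control body column mean, 20 between 10% and 20%, 22 between 20% and 50%, 7 between 50% and 100%, and 1 above 100%. As folds over control heads, 25 members were at 2 to 4 times, 19 at 4 to 10 times and 10 at 10 times or more, 1 of them with control heads at the floor of detection, with a median of 4.31. Values next to the thresholds were close on both sides. The smallest fold of RNAi over control heads inside was 2.04 and the largest outside 1.96, and the smallest body column over head fold inside was 4.09 and the largest outside 3.97. The lowest RNAi head stood at 1.01 times the highest control head in the member with the least separation and at 0.983 times in the nearest transcript left out. The lowest control body column had 5.24 CPM in the member closest to that limit, against 4.99 CPM in the nearest left out.

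The 10 transcripts named here follow a fixed rule based on the size of the head change, the body column level, the body column change and the share of that level reached. The 2 largest fitted rises belonged to members that were nearly undetected in control heads. GGKF01028247.1 had 4.26, 3.98, 4.04 and 3.27 CPM in RNAi heads, against 0, 0.323, 0 and 0.114 CPM in control heads. Every RNAi head was thus well clear of every control head, and their mean was 41.4% of the 9.4 ± 0.54 CPM in control body columns (SD, n = 3). The fitted log2 fold change of GGKF01028247.1 was 5.20 (SE 0.57), a value that depends on the prior count because control heads held at most 6 counts, and it was 6.63 without control head 2. GGKF01008851.1 had 0.443, 0.895, 1.46 and 1.04 CPM in RNAi heads, against 0, 0.108, 0 and 0 CPM in control heads. The counts were few, with 8.83 in the lowest RNAi head and at most 2 in a control head, so the mean of RNAi heads was at least 5.93-fold higher, taking 3 counts per control library as the floor of detection. It was the 1 member with all control heads at or under that floor.

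The 2 smallest rises were just over the limit of the rule. Relative to their level, libraries of a group lay closer together in GGKF01000894.1 than in GGKF01000136.1. GGKF01000894.1 had 5.72, 5.77, 5.89 and 5.25 CPM in RNAi heads, against 2.9, 2.74, 2.82 and 2.61 CPM in control heads, a log2 fold change of 1.15 with an SE of 0.11. GGKF01000136.1 had 106, 107, 123 and 81.6 CPM in RNAi heads, against 47.2, 59, 46.7 and 50.5 CPM in control heads, a log2 fold change of 1.16 with an SE of 0.12. Neither pair of groups overlapped, and the levels in RNAi heads were 43.5% and 37.9% of the control body column mean.

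The members with the highest CPM in control body columns were GGKF01003961.1 and GGKF01054338.1. GGKF01003961.1 had 401, 467, 504 and 459.9 CPM in RNAi heads, against 85.2, 158, 157 and 102 CPM in control heads and 1627, 1685 and 1513 CPM in control body columns. Without this most abundant member the summed CPM of the others was 985 to 1325 CPM in RNAi heads and 276 to 456 CPM in control heads. GGKF01054338.1 had 74.2, 72.4, 79.3 and 64.2 CPM in RNAi heads, against 0, 20.1, 0.116 and 1.31 CPM in control heads. The RNAi heads were alike, while control head 2 lay far above the other 3 control heads. Control body columns held 393 ± 43.1 CPM of it (SD, n = 3), so RNAi heads reached 18.5% of that level and control head 2 stood apart from heads with almost none. Its head call (edgeR BH adjusted p = 0.0162) had an edgeR BH adjusted p of 3.75e-06 without control head 2 and was lost in a fit of the heads alone (0.0857). DESeq2 gave no adjusted p for GGKF01054338.1.

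The members that came closest to the body column level were GGKF01008921.1 and GGKF01044365.1. GGKF01008921.1 had 94.5, 103, 69.2 and 91.4 CPM in RNAi heads, against 17.9, 23.1, 26.4 and 14.5 CPM in control heads and 87.9, 89.6 and 74.1 CPM in control body columns. RNAi heads overlapped control body columns here, with a mean at 107% of theirs. GGKF01044365.1 had 9.23, 8.83, 8.94 and 6.89 CPM in RNAi heads, against 2.04, 2.96, 2.5 and 2.12 CPM in control heads, and RNAi heads stood at 74.8% of control body columns, the lowest of which held 9.07 CPM. At the other end, GGKF01044346.1 reached 6.81% and GGKF01019802.1 7.18%. GGKF01044346.1 had 1.19, 0.702, 1.18 and 1.11 CPM in RNAi heads, against 0.0488, 0.28, 0.174 and 0.181 CPM in control heads. GGKF01019802.1 had 2.71, 2.26, 4.71 and 3.07 CPM in RNAi heads, against 0.337, 2.01, 1.42 and 1.11 CPM in control heads. Its lowest RNAi head thus lay only just above its highest control head. Its call in heads (edgeR BH adjusted p = 0.0266) was lost without RNAi head 3 or 4 or control head 4. There the edgeR BH adjusted p was 0.072, 0.0507 and 0.0706. The call of GGKF01019802.1 was also lost in a fit of the heads alone (edgeR BH adjusted p = 0.151), and was made in 11 of 15 fits.

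**Figure D2:**
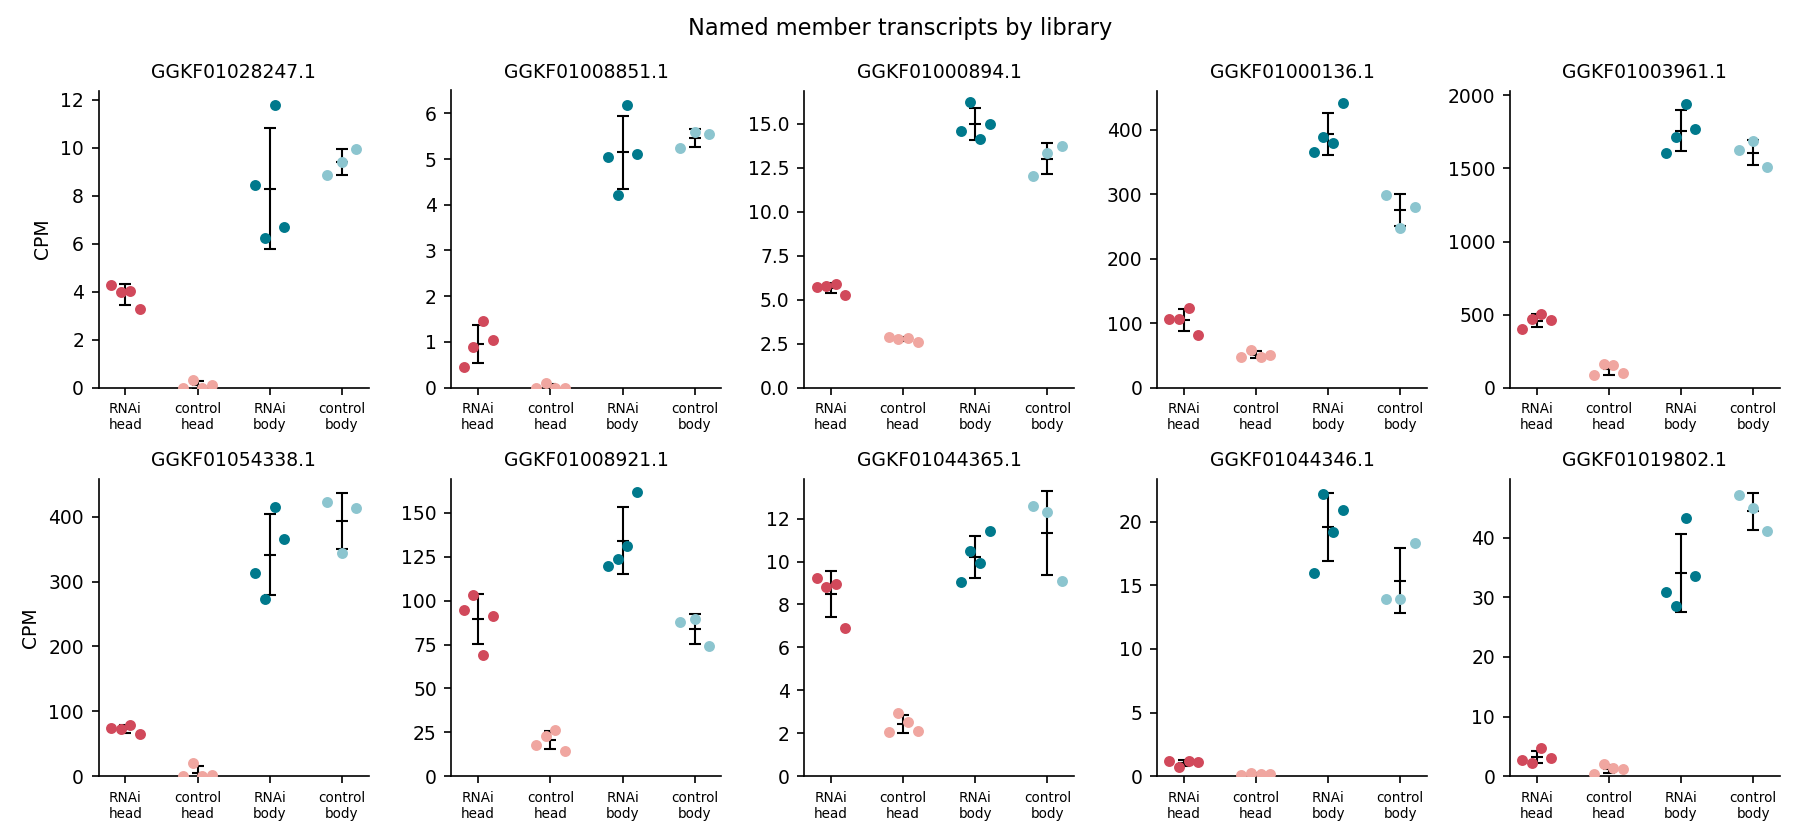
CPM of the 10 named members in each library (points), by group, with the group mean and SD (black bars, n = 4, or n = 3 in control body columns); each vertical axis starts at 0 and has its own scale. RNAi heads lie above control heads in all 10, and reach the range of control body columns in GGKF01008921.1 and, with 1 RNAi head, in GGKF01044365.1.

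The edgeR quasi-likelihood test with Benjamini-Hochberg (BH) adjustment over 31142 transcripts was then read for the members, all 54 of which passed the filter on low counts through the body columns in which they were chosen to be high. Of them, 53 were called higher in RNAi than in control heads at an adjusted p under 0.05, and none lower, against a background of 2.65% of tested transcripts called higher and 2.11% called lower. All 54 were called higher in control body columns than in control heads, against a background of 14.1% higher and 14.6% lower (4402 transcripts higher and 4538 lower, or 3238 and 5329 with library size alone as scaling). The rule used both contrasts, so nothing is read from these counts. The member not called, GGKF01047029.1, had an edgeR BH adjusted p of 0.276. With library size alone as scaling, the calls over all transcripts in heads were 268 higher and 840 lower, against 824 higher and 657 lower with the main scaling, and the median over all tested was −0.137 on the log2 scale in place of −0.020, while 52 members were still called higher. A fit of the heads alone called 31 members, and its share over all transcripts is not given here. DESeq2 called 47, against a background of 3.68% that DESeq2 called higher.

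The same measure was also taken in heads that the choice had not seen. When the rule was applied without RNAi head 1, 2, 3 or 4, it chose 61, 55, 54 and 62 transcripts. In the head left out, 49, 53, 50 and 51 of these had at least 2 times the control head mean, which is 80.3%, 96.4%, 92.6% and 82.3%. Among all 285 body-column-enriched transcripts, the chosen ones included, 86, 80, 94 and 73 did so in the same heads, or 30.2%, 28.1%, 33% and 25.6%. Among those not chosen, 37 of 224, 27 of 230, 44 of 231 and 22 of 223 did so. The same control heads served for choice and measurement, so only the RNAi side of this comparison is free of the choice. When control head 1, 2, 3 or 4 was left out, the rule chose 54, 71, 62 and 54 transcripts. The RNAi head mean was at least 2 times the left-out head in 90.7%, 67.6%, 75.8% and 87% of them, the lowest share being that of control head 2. Among all transcripts that were body-column-enriched without that head, the chosen ones included, it was so in 32.7%, 20.6%, 35.3% and 33.9%. Among those not chosen, it was so in 47 of 240, 16 of 239, 47 of 204 and 50 of 232.

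Control head 2 was the highest control head for 38 of the 54 members, or 70.4%, against 19% of all tested transcripts and 49.4% of the other body-column-enriched ones. In the median member it held 8.61% of the control body column mean, against 3.84%, 2.97% and 4.8% in control heads 1, 3 and 4. Without it, the median fold of RNAi over control heads was 5.59 in place of 4.31, and 53 members were called higher in RNAi heads. The share over all transcripts in that fit is not given here. For 36 members, or 66.7%, RNAi head 3 was the highest RNAi head, against 24.8% of tested transcripts and 29.9% of the other body-column-enriched ones. RNAi head 4 was the lowest for 30 members. It was the highest for 1.85% of members, against 30.7% of tested transcripts and 13.4% of the other body-column-enriched ones.

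Of the other body-column-enriched transcripts, 17 were called higher and 1 lower in RNAi heads, or 7.36% and 0.433%. For the 231 that were not members, RNAi heads held a median of 15.5% of the control body column mean and control heads a median of 16.9%. By library, the median of these 231 was 16.9%, 10.6%, 15.8% and 13.6% in RNAi heads 1 to 4 and 16.6%, 19.4%, 11.9% and 13.5% in control heads 1 to 4. The groups overlapped, whereas for the members the library medians were 19.2% to 26.8% in RNAi heads and 2.97% to 8.61% in control heads. The contrast between the sets follows from the rule and is given without a test.

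Members and other transcripts were also described by their level in control heads. The others are those whose heads overlapped or whose fold was under 2, so the contrast between the sets in RNAi heads is fixed by the rule and nothing is read from it. With control heads under 2% of the control body column mean there were 16 members and 20 others. Those 16 members stood at a median of 12.5% in RNAi heads, from 6.81% to 41.4%, against a median of 1.16% in control heads, or 0.222% without control head 2. By library their medians were 11.5%, 12.2%, 15.7% and 9.64% in RNAi heads 1 to 4, against 0.00764%, 3.95%, 0.0604% and 0.244% in control heads 1 to 4. Control head 2 thus held most of what control heads had of these members. The 20 others stood at a median of 1.87% in RNAi heads, from 0% to 5.26%, against 0.272% in control heads, or 0% without control head 2. Of those 20, 11 stayed under 2% in RNAi heads and 3 were listed at 0 in all 4 RNAi heads. Whether head samples held some body column tissue was not tested.

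With control heads at 2% to 10% of the control body column mean, 20 members had a median of 19.5% in RNAi heads against 4.97% in control heads, and 46 others a median of 6.34% against 6%. With control heads at 10% to 25%, 18 members had a median of 43.3% in RNAi heads against 17.9% in control heads, and 165 others 18.1% against 19.8%. Members with more transcript in control heads stood closer to the body column level in RNAi heads, which the condition of 2 times sets in part. These limits were chosen after the levels were seen.

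**Figure D3:**
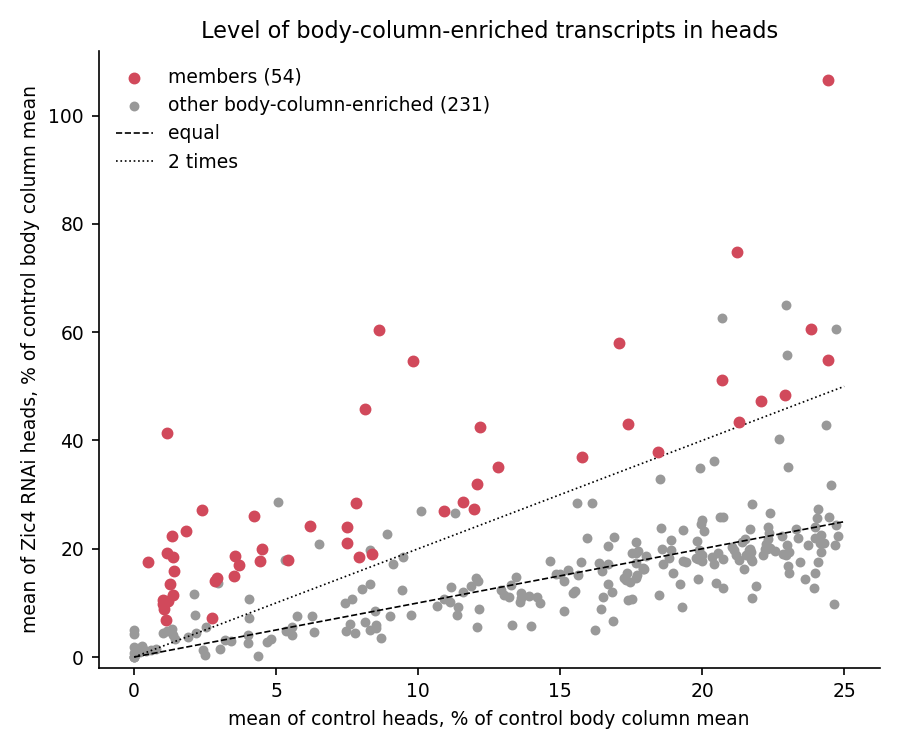
Mean level in Zic4 RNAi heads (vertical) against the mean in control heads (horizontal), each as a percent of the control body column mean, for the 54 members (red) and the 231 other body-column-enriched transcripts (grey); lines mark equal levels and 2 times. Members lie above the line of 2 times by choice, and the grey points cluster about the line of equal levels, with medians of 15.5% in RNAi heads and 16.9% in control heads.

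RNAi body columns, which the rule did not use, kept the members at body column levels. All 4 RNAi body columns had at least 4 times the control head mean for 51 of the 54 members, or 94.4%, and for 143 of the other 231, or 61.9%. Control heads had been chosen low, lower in members than in the others, which favours this count. Of the members, 51 had at least 5 CPM in each RNAi body column, as did 198 of the other 231. Both sets had been chosen at that level or more in every control body column. Levels in RNAi body columns were a median of 88% of the control body column mean over the members, with quartiles at 77.9% and 110.0%, and a median of 87.1% over the other 231. Between RNAi and control body columns, 1 member was called higher and none lower, against a background of 1.51% of tested transcripts called higher and 0.543% called lower (edgeR quasi-likelihood test, BH adjusted). With library size alone, 64 transcripts were called higher and 79 lower in body columns, against 471 and 169. Without adjustment, edgeR gave p under 0.05 for 7 members with a higher and 4 with a lower level, against 9.85% and 6.94% of tested transcripts. The DESeq2 Wald test called 5 members higher and 1 lower and gave no adjusted p for 6, against 4.29% and 2.02% of the transcripts to which it gave one. The median log2 fold change of the members was −0.13, with 19 above 0 and 35 below, against 0.011 over all tested transcripts. Control body columns had been chosen high by the rule, which by itself favours a lower value after RNAi.

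The median SE of these log2 fold changes was 0.32. For 31 of the 54 members the log2 fold change plus and minus 2 SE lay within −1 and 1. These SEs came from the fit of all 15 libraries, in which heads and body columns share the estimate of spread. Spread among heads thus enters them, so the 31 are not a measure of spread among body columns alone. GGKF01054338.1, in which control head 2 stood apart, had a body column SE of 0.74. The RNAi libraries lay above all control body columns for 7 members and below all of them for 10. Over all tested transcripts these shares were 5.87% and 9.12%.

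The member called in body columns was GGKF01000136.1, with 366, 388, 379.7 and 441 CPM in RNAi body columns, against 298, 248 and 280.1 CPM in control body columns. The groups did not overlap, with a log2 fold change of 0.57 ± 0.13 (SE; edgeR BH adjusted p = 0.0402). The call was lost in all 7 leave-one-out fits (edgeR BH adjusted p = 0.0637 to 0.178), and over all fits the adjusted p ranged from 0.0012 with DESeq2 to 0.178. GGKF01008921.1, the member that reached the full body column level in RNAi heads, had 119.8, 124, 131 and 162 CPM in RNAi body columns, against 87.9, 89.6 and 74.1 CPM in control body columns. Its groups did not overlap either, but its log2 fold change of 0.73 ± 0.20 (SE) was not called by edgeR (BH adjusted p = 0.0757), while DESeq2 gave an adjusted p of 0.0106.

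Within RNAi animals most members were still higher in the body column than in the head. Among the 54 members, 49 were called higher in RNAi body columns than in RNAi heads and none was called higher in RNAi heads, against a background of 12.5% of tested transcripts called higher in the body column and 13.1% called higher in the head (edgeR quasi-likelihood test, BH adjusted). Without adjustment, edgeR gave p under 0.05 for 50 members with a higher level in the body column and for 0 with a higher level in the head, against 16.7% and 17.8% of tested transcripts. DESeq2 called 44 and 0, with no adjusted p for 6 members, against 11.6% and 12.5% of the transcripts to which it gave one. RNAi heads had been chosen high, which works against such a call. Control body columns had been chosen at least 4 times control heads, which favours it. Of the other 231 body-column-enriched transcripts, 213, or 92.2%, were called higher in RNAi body columns by edgeR. Nothing particular to the members is therefore read from the 49. The mean fold of RNAi body columns over RNAi heads had a median of 3.63 and ranged from 1.18 to 18.7. The fold of control body columns over control heads, which chose the members, had a median of 17.3. Every RNAi body column lay above every RNAi head for 49 members, or 90.7%, against 94.4% of the other body-column-enriched transcripts and 12% of all tested.

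The 5 members without a call between RNAi tissues were GGKF01028247.1, GGKF01034100.1, GGKF01044365.1, GGKF01047029.1 and GGKF01066028.1, listed here after their values were seen. The edgeR BH adjusted p was 0.0555, 0.405, 0.196, 0.408 and 0.533 in that order. GGKF01044365.1 had 9.03, 10.5, 9.93 and 11.4 CPM in RNAi body columns, against 9.23, 8.83, 8.94 and 6.89 CPM in RNAi heads, and these groups overlapped. The log2 fold change of RNAi body columns over RNAi heads was 0.33 ± 0.17 (SE). GGKF01044346.1 showed the widest remaining gap, with 16, 22.2, 19.2 and 20.9 CPM in RNAi body columns against 1.19, 0.702, 1.18 and 1.11 CPM in RNAi heads, a log2 fold change of 4.29 ± 0.23 (edgeR BH adjusted p = 1.82e-08).

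The RNAi effect was more positive in heads than in body columns for all 54 members in the fitted values, and the difference was called for 33 of them, all of them in that direction, against a background of 0.501% of tested transcripts more positive and 1.07% more negative in heads (edgeR interaction term, BH adjusted). The head values entered the rule, so this count is a description. The difference had a median of 2.31 on the log2 scale, also with the member at the floor of detection set to its bound. Leaving out 1 library gave 23 to 40 called members, the highest number without control head 2, with the shares over all transcripts not given here.

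**Figure D4:**
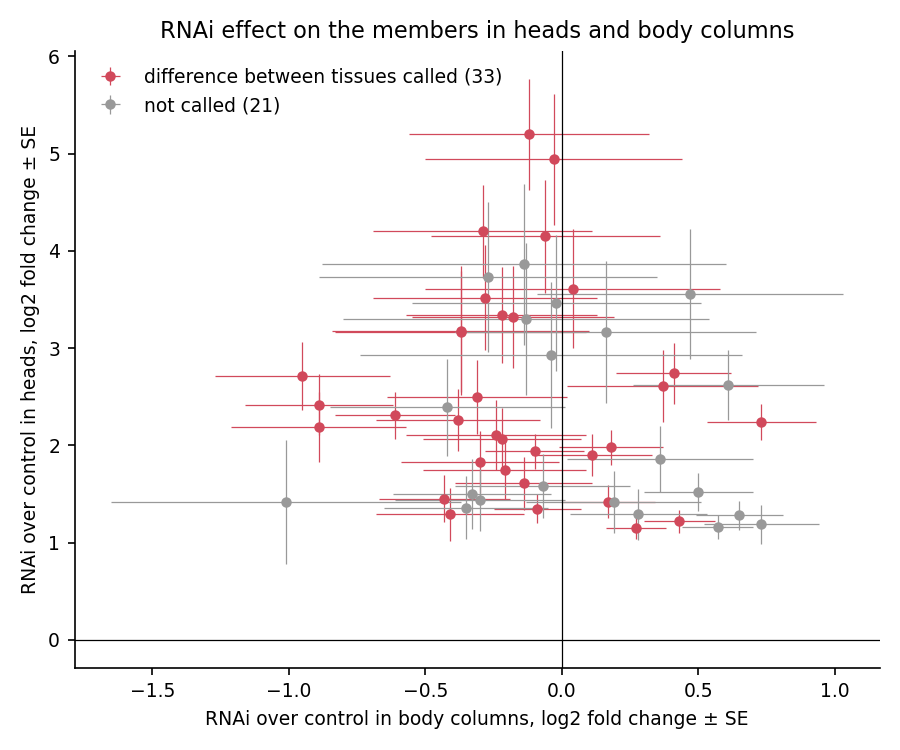
Fitted log2 fold change of RNAi over control in heads (vertical) and in body columns (horizontal) for the 54 members, with bars of 1 SE; red points are the 33 members whose RNAi effects were called different between the tissues. All points lie above 1 in heads, as the choice required, and between −1.01 and 0.73 in body columns.

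Members with neighbouring contig numbers behaved alike in some cases and not in others. Of the 54, 19 fell into 7 runs of IDs no more than 15 numbers apart, the longest with 5 members. The files do not say whether such contigs belong to 1 gene, but contigs of similar sequence share reads, so these members may not be independent. Counting each run once leaves 42 units. GGKF01002439.1 and its 2 neighbours in the list reached 10.2% to 11.5% of the control body column mean in RNAi heads. GGKF01039555.1 to GGKF01039557.1 reached 14.6% to 17.1% in RNAi heads, with body column log2 fold changes of −0.89 to −0.61. None of these changes was called by edgeR after adjustment, with unadjusted edgeR p of 0.00515, 0.0142 and 0.0149. DESeq2 called GGKF01039555.1 lower in body columns (adjusted p = 0.0328). The 5 members from GGKF01027381.1 to GGKF01027396.1 ranged more widely, from 17.9% to 54.9% in RNAi heads and from −0.30 to 0.73 in body columns. Of these, DESeq2 called GGKF01027382.1, GGKF01027386.1 and GGKF01027387.1 higher in body columns (adjusted p = 0.0298, 0.0194 and 0.00267). The DESeq2 calls in body columns thus rest in part on contigs of these runs. These runs were chosen after their values were seen. Among the other body-column-enriched transcripts 62.3% fell into such runs, against 35.2% of the members, lists that differ in size and so in how often IDs lie near each other.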

How the data were processed

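RNA was sequenced from Zic4 RNAi and control heads and body columns, in stranded libraries of polyadenylated RNA, per the labels' protocols. The deposited values are expected counts, estimated read numbers per contig that need not be whole, in 1 column per library, and the column totals differ, so they were not scaled. The submitters' processing notes name Salmon and DESeq2 1.26.0 without a role; the reference used and the settings are not given in the sources used here. Of the nonzero values 73.9% were not whole within 0.001 counts. Contigs of similar sequence share reads, so single values are uncertain and a value of 0 need not mean absence. None of the 79784 IDs was found among 28925 RefSeq genes (0 matches).

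Columns were matched to samples by title. The rule was applied to CPM, each count per 1000000 counts of the deposited column total, and levels in the text are these values. For tests, counts were rounded (a library total moved by at most 145 counts), filtered with filterByExpr, scaled with TMM factors and fitted together, 15 libraries with 4 group means, by edgeR 4.0.16 (R 4.3.3). Contrasts used the quasi-likelihood test with BH adjustment over 31142 transcripts, and SEs came from the log2 fold change and its F statistic. The main alternative was DESeq2 1.42.0. Fitted log2 fold changes use a prior count of 0.125. Floors cover counting error only. The fit was tested on simulated data with the same dispersion for every transcript and the same level in heads and body columns, unlike the real data. In body columns it recovered 61 of 100 simulated 2-fold changes and 100 of 100 simulated 4-fold changes, and 4.73% of its calls were false. Because the setting differs, these shares do not give how often a change in a member would be found. Changes of 2-fold or less in body columns can be missed, and larger ones too where the SE of a member is large.

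Named members were the 2 with the largest and the 2 with the smallest log2 fold change in heads, the 2 with the highest CPM in control body columns, up to 2 called higher and 2 called lower in body columns, and the 2 with the highest and the 2 with the lowest share of the body column level reached in RNAi heads. The members, the rule and the lists were chosen with earlier results of these data known.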

Additional observations from a re-analysis of the deposited data

Results flagged for a closer look

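Control head 2 stood apart from the other 3 control heads for 2 named members. It had 20.1 CPM of GGKF01054338.1, where the other control heads had at most 1.31 CPM, and 0.108 CPM of GGKF01008851.1, where the others were listed at 0. Over all 54 members it stood apart as the high value for 14, or 25.9%, against 1.38% of tested transcripts, while chance flags about 1 in 20 groups of this size on either side. Without it, the edgeR BH adjusted p of GGKF01054338.1 in heads was 3.75e-06, against 0.0162 with all libraries. RNAi head 2 stood apart on the low side for GGKF01044346.1, with 0.702 CPM against 1.11 to 1.19 CPM in the other RNAi heads.

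The RNAi effect differed between tissues for 7 named members (edgeR interaction term, BH adjusted p under 0.05), each with a more positive effect in heads and 4 of 4 RNAi heads above all control heads. The head values chose these members, so the differences are a description. On the log2 scale the effect in heads minus that in body columns was 5.32 for GGKF01028247.1 (6.75 without control head 2), 2.33 for GGKF01044346.1, 2.03 for GGKF01044365.1, 1.79 for GGKF01003961.1, 1.51 for GGKF01008921.1 and 0.88 for GGKF01000894.1. For GGKF01008851.1, whose control heads were all at or under 3 counts, it was at least 2.65, computed from CPM with control heads set to 3 counts per library.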

How the results depend on the processing

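The number of members was 54, and stayed within 1.5 times of it under the other limits and scalings tried except 2. It was 29 when RNAi heads had to reach 4 times the control heads and 89 when RNAi and control heads could overlap. With TMM-normalized CPM it was 67, and leaving out 1 library gave 54 to 71. The median share of the control body column level in RNAi heads, 23.6%, was 18.1% with the control head mean subtracted from both levels, and 22.7% to 24.5% with 1 library left out. Calls in heads numbered 31 of 54 in a fit of the heads alone, and why the number fell was not tested. They numbered 47 with DESeq2, which gave no adjusted p for 6 members, and 48 to 53 with 1 library left out. For fits on fewer libraries the shares called over all transcripts are not given here. In body columns the number called was 1, and 6 with DESeq2. The number was 0 with library size alone, without the filter on low counts and with the replicate block. It was also 0 in each fit that left out 1 library (0 to 0). The cause was not tested. Over all 31142 tested transcripts, edgeR called 471 higher and 169 lower in body columns. These numbers were 64 and 79 with library size alone, and 79 and 22 with the replicate block. Without the filter they were 215 and 59 of 64002. Few transcripts were called with any of these settings, so nothing particular to the members is read from the 0. The median fold of RNAi over control heads without 1 control head was 4 to 5.59; this, the class medians without control head 2 and the tissue difference without it were chosen after seeing the data. Of the named members' calls, 136 held under an alternative and 15 did not, the lost ones being of GGKF01019802.1, GGKF01054338.1 and GGKF01000136.1.

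Among values that were not called, GGKF01008851.1 in body columns, −0.03, was 0.16 with the replicate block, and −0.12 to 0.04 with 1 body column left out, above 0 without RNAi body column 2 (0.04) or control body column 3 (0.01), and GGKF01054338.1, −0.14, was 0.06 with the replicate block. Same-numbered libraries deviated from their group means with correlations of −0.0357 to 0.0403, so the numbers were not taken to pair the samples. With the replicate block 50 members were called in heads, 47 between RNAi tissues, 54 between control tissues and 23 in the interaction, against 53, 49, 54 and 33, and the edgeR BH adjusted p of GGKF01000136.1 in body columns was 0.0695. Over all tested transcripts the block gave 535, 3580, 3991 and 77 calls in the same directions, against 824, 3886, 4402 and 156. Depth limits the least abundant members, whose lowest RNAi head held 8.83 counts.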
